A study of Mus musculus with 6 samples.

Results

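Collagen chain genes encode the polypeptides that assemble into collagens, and they were followed here in tumor endothelial cells (TECs) with and without forced Notch activity. The members were all RefSeq rows of the expression table whose gene name had the form Col, a number, the letter a and a number, which gave 44 of 23473 RefSeq rows. Of the 44, 19 had a mean of at least 1 RPKM over the 6 libraries and were tested, and the other 25 are given by value only. RPKM scales the reads of a gene by its length and by the depth of its library, so it compares levels between genes per length.

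The cells came from tumors of Lewis lung carcinoma (LLC), a transplanted mouse lung cancer line, in C57BL/6 mice aged 8 weeks, with 3 libraries from NICeCA mice and 3 from control (Ctrl) mice. NICeCA mice carry a tamoxifen-inducible Cre recombinase driven by the promoter of Cdh5, an endothelial cadherin gene, and a Rosa26 allele from which the recombinase releases the Notch1 intracellular domain. The labels give the Ctrl mice as wild type, and whether they carried Cre or received tamoxifen is not stated. Per the study's methods, tamoxifen was given at 100 mg/kg daily for 5 days and tumors were collected on day 14, whereas the labels say that the days of dissection differed. Cells were digested with collagenase I and captured on beads against CD31, an endothelial surface protein that some leukocytes also carry, with a labelled purity of over 90%. The study's methods speak of 3 pairs of mice, but the labels do not tell which mice formed a pair, and each p-value measures the spread between the 3 libraries of a group.

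Each library had between 27793301 and 30769916 reads on its RefSeq rows, of which collagen chain genes took 0.498% to 0.847%. Hey1, a direct Notch target, rose in NICeCA libraries (log2 fold change 1.10, limma adjusted p = 0.0412), Nrarp, another target, was above every Ctrl library in each NICeCA library (1.05, limma adjusted p = 0.0519), and the Notch1 row itself showed 0.11 (limma adjusted p = 0.713). All 15 endothelial marker genes were detected in every library, and their summed level was 264 to 672 RPKM in Ctrl and 572 to 744 RPKM in NICeCA libraries. The 10 macrophage marker genes summed to 6552 to 9446 RPKM in Ctrl and 4439 to 8227 RPKM in NICeCA libraries, with Lyz2, a myeloid lysozyme, as the most abundant, so the levels below are those of the captured cells as a whole. In such bulk libraries, fewer cells of a type and less RNA per cell cannot be told apart.

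Every collagen is built from chains that wind around each other in stretches of the repeat Gly-X-Y, in which glycine, the smallest residue, fills the centre of the helix. Fibrillar collagens (types I, II, III, V, XI, XXIV and XXVII) form the banded fibrils of connective tissue, type IV collagen forms the sheet-like network of the basement membrane on which endothelial cells sit, type VI forms beaded filaments, and fibril-associated collagens (FACITs) and transmembrane collagens lie on fibrils or at the cell surface. Endothelial cells are known to secrete the type IV chains, whereas fibroblasts and mural cells are the usual sources of fibrillar chains.

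The repeat can be read in the genes. In the GENCODE M21 annotation of the mouse genome (GRCm38), 24.5% of the 1917 internal coding exons of the 44 collagen genes were exactly 54 bases long, against 0.411% of the 98454 internal coding exons of the other tested genes, and 63.8% had a length that is a multiple of 9 bases, against 13.3%. Exons of 54 bases made up 48.6% of those of the fibrillar genes and 4.23% of those of the basement membrane genes. In the 6 tested fibrillar genes the longest unbroken run of Gly-X-Y repeats was 337 to 344 repeats, and in the 13 other tested members 30 to 87. One 54-base exon is printed for 6 members whose levels the results turn on, to show this shared unit. Each is the first exon of that length in its gene in which a glycine codon (GGN) opens each of 6 Gly-X-Y repeats. The 18 codons are given in the coding direction, with the glycine codons that open a repeat in capitals. Col5a1 and Col1a1 also hold a glycine codon inside a repeat, ggc and ggt, which is left in lower case.
Col3a1, chr1:45325360-45325413, plus strand, coding exon 6: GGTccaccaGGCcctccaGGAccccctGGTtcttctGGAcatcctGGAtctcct
Col5a1, chr2:27965251-27965304, plus strand, coding exon 15: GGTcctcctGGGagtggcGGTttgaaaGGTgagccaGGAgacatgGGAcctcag
Col5a2, chr1:45434892-45434945, minus strand, coding exon 6: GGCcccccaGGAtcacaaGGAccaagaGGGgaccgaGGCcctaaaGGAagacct
Col1a1, chr11:94939904-94939957, plus strand, coding exon 8: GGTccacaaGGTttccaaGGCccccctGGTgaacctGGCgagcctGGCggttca
Col4a1, chr8:11245211-11245264, minus strand, coding exon 7: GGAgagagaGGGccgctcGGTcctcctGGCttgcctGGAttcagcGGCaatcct
Col13a1, chr10:61869524-61869577, minus strand, coding exon 24: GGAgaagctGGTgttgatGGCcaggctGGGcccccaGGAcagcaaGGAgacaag

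Across the family, the data showed no single direction. Among the 19 tested members, 2 rose and 4 fell in NICeCA libraries at a limma adjusted p under 0.05, with Col13a1 and Col5a2 higher and Col16a1, Col5a1, Col6a2 and Col3a1 lower. Of all 12320 rows tested, 5.88% were called higher and 7.68% lower, so the members called higher, 2 of 19, and lower, 4 of 19, are to be read against these shares. Col13a1 reached the mean of 1 RPKM through its NICeCA values alone, so its place among the tested members is not independent of its change. The NICeCA libraries lay wholly above the Ctrl libraries for 2 members and wholly below for 5, where 16.5% and 24.4% of all rows did so and 40.9% were apart in either direction. The median log2 fold change of the 19 was -0.29, beside -0.05 over all rows, and 8 members had a positive and 11 a negative value. Trimmed-mean scaling of the libraries left 2 higher and 1 lower, limma voom on recovered reads left 2 higher and 2 lower (7.79% and 6.44% of all rows), and removal of each library's trend with gene length left 2 higher and 0 lower. The number called lower was 0 without Ctrl replicate 1, Ctrl replicate 2, NICeCA replicate 1 or NICeCA replicate 2. It was 2 without Ctrl replicate 3 and 7 without NICeCA replicate 3, while the number called higher ran from 0 to 3. These are to be read against all 12320 rows. There, 499 were called higher and 536 lower without Ctrl replicate 1, 242 and 137 without Ctrl replicate 2, and 913 and 748 without Ctrl replicate 3. The all-row counts were 91 and 14 without NICeCA replicate 1, 26 and 1 without NICeCA replicate 2, and 511 and 832 without NICeCA replicate 3.

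**Figure D1:**
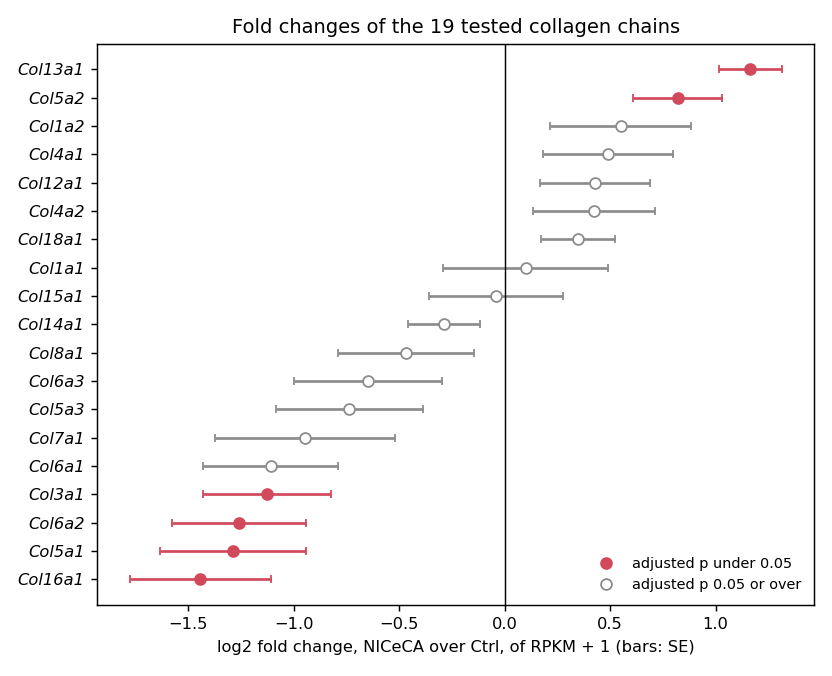
Log2 fold change of RPKM + 1 in NICeCA over Ctrl libraries (x axis, bars are SE) for the 19 tested collagen chain genes (y axis), with filled points for an adjusted p under 0.05. Col13a1 stands at the top with 1.16 and Col16a1 at the bottom with -1.44, and the type IV chains lie among the open points.

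The most abundant fibrillar chain was Col3a1, whose product forms the homotrimeric type III collagen of vessel walls and soft tissue. Its level was 270.1, 454 and 300.3 RPKM in Ctrl replicates 1 to 3 and 149, 103 and 226 RPKM in NICeCA replicates 1 to 3. All NICeCA libraries lay below all Ctrl libraries, and Col3a1 fell by 1.13 on the log2 scale (SE 0.30, limma adjusted p = 0.0478), a value close to the threshold. The call was kept in 5 of 15 alternative fits, with limma adjusted p from 0.0330 to 0.164, and was lost when any library but NICeCA replicate 3 was left out. Col3a1 alone took 25.7% to 39.0% of the summed collagen RPKM in Ctrl and 15.4% to 22.5% in NICeCA libraries.

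Type V collagen, which nucleates fibrils of types I and III, showed opposite changes in its chains. Col5a1, the chain shared by most type V trimers, measured 23.5, 44.4 and 22.0 RPKM in Ctrl and 9.24, 7.85 and 18.3 RPKM in NICeCA replicates 1 to 3, with no overlap of the groups (fell by 1.29 on the log2 scale, SE 0.35, limma adjusted p = 0.0476). Its partner chain Col5a2 measured 2.14, 2.84 and 2.63 RPKM in Ctrl and 4.60, 4.00 and 7.61 RPKM in NICeCA libraries, and rose in all of them (log2 fold change 0.82, SE 0.21, limma adjusted p = 0.0435). The third chain, Col5a3, stood at 8.01 to 14.6 RPKM in Ctrl and 3.92 to 10.5 RPKM in NICeCA libraries, with overlapping groups (-0.74, SE 0.35, limma adjusted p = 0.170). The call of Col5a1 was lost when any library but NICeCA replicate 3 was left out, with limma adjusted p of 0.0527 to 0.171, and that of Col5a2 when any library was left out, with 0.0588 to 0.124.

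The chains of type I collagen, the main fibril former of connective tissue, were less abundant than Col3a1 and were not called. Col1a1 measured 9.57, 28.2 and 14.5 RPKM in Ctrl and 11.7, 16.3 and 25.8 RPKM in NICeCA libraries, and its groups overlapped throughout (0.10, SE 0.39, limma adjusted p = 0.875). Col1a2 measured 5.85, 15.4 and 9.93 RPKM in Ctrl and 11.7, 12.6 and 21.2 RPKM in NICeCA libraries (0.55, SE 0.33, limma adjusted p = 0.269). The highest Ctrl value of both type I chains came from replicate 2 and the highest NICeCA value from replicate 3. These were also the libraries with the highest collagen values in general, since Ctrl replicate 2 was the highest Ctrl library for 13 of the 19 tested members and NICeCA replicate 3 the highest NICeCA library for 18 of 19.

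Col3a1 and Col5a2, which moved in opposite directions, are neighbours on chromosome 1. The rows of the table place Col3a1 at chr1:45311538-45349706 on the plus strand and Col5a2 at chr1:45374331-45503282 on the minus strand, so that their ends face each other across 24624 bases.

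**Figure D2:**
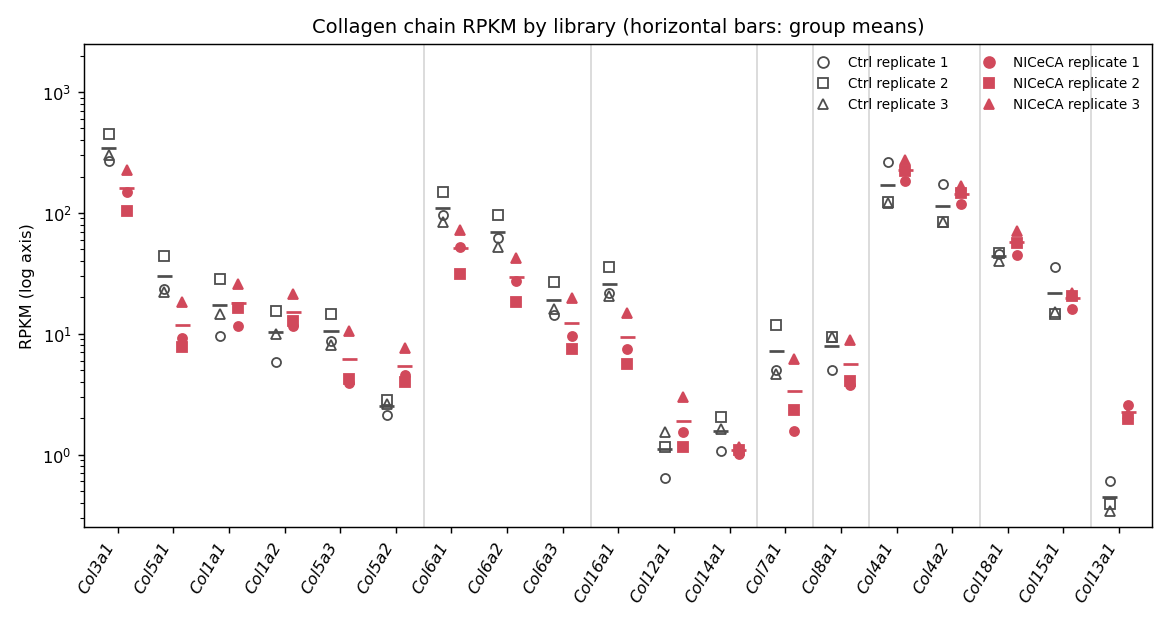
RPKM on a log axis (y axis) in each Ctrl library (open symbols) and NICeCA library (filled symbols) for the 19 tested collagen chain genes (x axis), grouped by structural class with vertical lines between classes. Col3a1, Col5a1, Col6a1, Col6a2 and Col16a1 show all filled symbols below all open ones, and Col5a2 and Col13a1 the reverse.

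Type VI collagen forms beaded filaments that lie between basement membranes and the interstitial matrix, and is built from Col6a1, Col6a2 and a larger chain such as Col6a3. Col6a2 measured 62.1, 95.6 and 52.0 RPKM in Ctrl and 27.2, 18.3 and 42.2 RPKM in NICeCA replicates 1 to 3, without overlap (fell by 1.26 on the log2 scale, SE 0.32, limma adjusted p = 0.0427). Its call was kept in 6 of 15 alternative fits, with limma adjusted p from 0.0328 to 0.153, and was lost without Ctrl replicate 1 or 2 or NICeCA replicate 1 or 2. Col6a1 measured 96.0, 149.7 and 84.1 RPKM in Ctrl and 51.8, 31.2 and 71.7 RPKM in NICeCA libraries, also without overlap, but missed the threshold (-1.11, SE 0.32, limma adjusted p = 0.0554). Col6a3 stood at 14.2 to 26.7 RPKM in Ctrl and 7.47 to 19.7 RPKM in NICeCA libraries (-0.65, SE 0.35, limma adjusted p = 0.219). The Col6a1 and Col6a2 genes lie 85387 bases apart on the same strand of chromosome 10, and the remaining type VI genes Col6a4, Col6a5 and Col6a6 had at most 0.180 RPKM in any library.

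Among the fibril-associated collagens, Col16a1, whose product decorates fibrils and cell adhesions, had the most negative fold change of the family. It measured 21.8, 35.7 and 20.5 RPKM in Ctrl and 7.48, 5.64 and 14.8 RPKM in NICeCA libraries, and fell by 1.44 on the log2 scale (SE 0.33, limma adjusted p = 0.0366). The call was kept in 7 of 15 alternative fits, with adjusted p from 0.0279 to 0.139. Col12a1, a FACIT of dense connective tissue, stood at 0.639 to 1.54 RPKM in Ctrl and 1.16 to 2.98 RPKM in NICeCA libraries (0.43, SE 0.26, limma adjusted p = 0.270), and Col14a1 at 1.06 to 2.04 and 1.02 to 1.15 RPKM (-0.29, SE 0.17, limma adjusted p = 0.263). Col7a1, the anchoring fibril chain of skin, stood at 4.64 to 11.7 RPKM in Ctrl and 1.56 to 6.14 RPKM in NICeCA libraries (-0.95, SE 0.43, limma adjusted p = 0.154). Col8a1, a short-chain collagen of vessel walls and of the corneal membrane, stood at 4.98 to 9.39 and 3.76 to 8.94 RPKM (-0.47, SE 0.32, limma adjusted p = 0.326).

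The basement membrane chains Col4a1 and Col4a2, which assemble together into the common type IV trimer, were the most abundant members besides Col3a1 and did not pass the test. Col4a1 measured 265, 123 and 122 RPKM in Ctrl and 184, 222 and 272 RPKM in NICeCA replicates 1 to 3 (0.49, SE 0.31, limma adjusted p = 0.285). Col4a2 measured 174, 83.7 and 83.5 RPKM in Ctrl and 119.6, 146 and 168 RPKM in NICeCA libraries (0.42, SE 0.29, limma adjusted p = 0.326). Ctrl replicate 1 stood within the NICeCA range for Col4a1 and just above it for Col4a2, while the other two Ctrl libraries lay below it for both. Ctrl replicate 1 was also the Ctrl library with the highest summed endothelial markers, 672 RPKM against 264 and 344, and the part of this in the type IV levels was not tested. Without Ctrl replicate 1, both chains were called higher, Col4a1 with 0.86 (limma adjusted p = 0.0443) and Col4a2 with 0.77 (limma adjusted p = 0.0466). That was the only 1 of 15 alternative fits that called either chain. The lowest fold changes came with quantile normalization, 0.12 for Col4a1 (limma adjusted p = 0.828) and 0.05 for Col4a2 (limma adjusted p = 0.925).

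The paired genes share a start region. In the table, Col4a1 (chr8:11198423-11312826, minus strand) and Col4a2 (chr8:11312829-11449287, plus strand) run away from each other, with 2 bases between the rows. The window below, chr8:11312813-11312842 on the plus strand (RefSeq sequence, GRCm38.p6), is printed to show this arrangement, with the 2 bases in capitals and 14 bases of each gene on either side.
Col4a1-Col4a2 junction: ggcggcgtctccaaGGggaggaccctgcgg
The other type IV pairs, Col4a3 with Col4a4 and Col4a5 with Col4a6, are also arranged head to head, with 71 and 1342 bases between the rows, and these 4 genes had at most 0.151 RPKM in any library.

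The multiplexins, which also sit in vascular basement membranes and carry the endostatin domain in Col18a1, were not called. Col18a1 measured 45.6, 46.3 and 40.3 RPKM in Ctrl and 45.0, 56.2 and 70.4 RPKM in NICeCA libraries (0.35, SE 0.17, limma adjusted p = 0.192). Col15a1 measured 35.8, 14.7 and 15.1 RPKM in Ctrl and 16.1, 20.7 and 21.9 RPKM in NICeCA libraries (-0.04, SE 0.32, limma adjusted p = 0.939), again with Ctrl replicate 1 apart from the other Ctrl libraries.

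The transmembrane chain Col13a1, a collagen of cell adhesions, had the lowest adjusted p of the family and rose from a low level. It measured 0.6005, 0.390 and 0.345 RPKM in Ctrl and 2.58, 1.96 and 2.18 RPKM in NICeCA replicates 1 to 3, a difference far wider than the spread within either group. The group means were 0.445 ± 0.137 and 2.24 ± 0.313 RPKM (SD, n = 3 libraries each), and the log2 fold change of RPKM + 1 was 1.16 (SE 0.15, limma adjusted p = 0.0109), which understates the change of so low a gene. No Ctrl library reached 1 RPKM, so Col13a1 passed the filter on low values only through the NICeCA libraries. The call held in 11 of 14 alternative fits, and was absent without NICeCA replicate 1 (adjusted p = 0.0528), without NICeCA replicate 2 (0.0519) and when no filter on low values was applied (0.0507).

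Promoters were searched for the core motif of RBPJ, the DNA-binding partner of the Notch1 intracellular domain, because the study activates Notch. The window ran from 250 bases before to 50 bases after the RefSeq start (GRCm38.p6), and 15 of the 19 tested members had an entry. TGGGAA, on either strand, was present in the windows of 2 of the 15, Col13a1 and Col18a1, and in 23.1% of 11370 promoter windows of all tested genes. The Col13a1 motif lies before the start of its row, and the Col18a1 motif before another RefSeq start that lies inside its row, the window at the start of the row having no match. Both are shown in the direction of the gene, with the 6 motif bases in capitals.
Col13a1, chr10:61979137-61979162, minus strand, motif from 44 bases before the start: gagattagttTGGGAAgtagcgcccg
Col18a1, chr10:77113753-77113778, minus strand, motif from 63 bases before the inner start: ggaaggagacTGGGAAccaggaatga
TATAAA, the TATA box, was present on either strand in Col13a1 and Col3a1 and in 7.17% of all windows. CCAAT was present in 7 of the 15, both type IV chains included, and in 37.3% of all windows, and GGGCGG, the GC box, in 10 of the 15 and in 62.1%. For each motif a member was counted if any of its windows matched, while the percentage is over single windows, so count and percentage are not like for like. These matches are letters in a window, and no binding was measured.

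The structural classes took different shares of the collagen mRNA in the groups. The summed RPKM of all 44 members was 1050, 1163 and 812 in Ctrl replicates 1 to 3 and 664, 671 and 1016 in NICeCA replicates 1 to 3, so that the groups overlapped. Basement membrane chains made up 41.8%, 17.8% and 25.3% of the sum in Ctrl and 45.7%, 55.0% and 43.3% in NICeCA libraries. The share of these chains was thus higher in every NICeCA library than in any Ctrl library, by a small margin over Ctrl replicate 1. Beaded filament chains made up 16.4%, 23.4% and 18.8% in Ctrl and 13.4%, 8.53% and 13.2% in NICeCA libraries, without overlap. Fibrillar chains made up 30.6%, 48.2% and 44.1% in Ctrl and 28.8%, 22.2% and 30.6% in NICeCA libraries, where Ctrl replicate 1 and NICeCA replicate 3 were nearly level. Multiplexins made up 5.24% to 7.75% and 9.09% to 11.5%, also without overlap. Shares of a sum depend on each other, and no test was made of them.

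**Figure D3:**
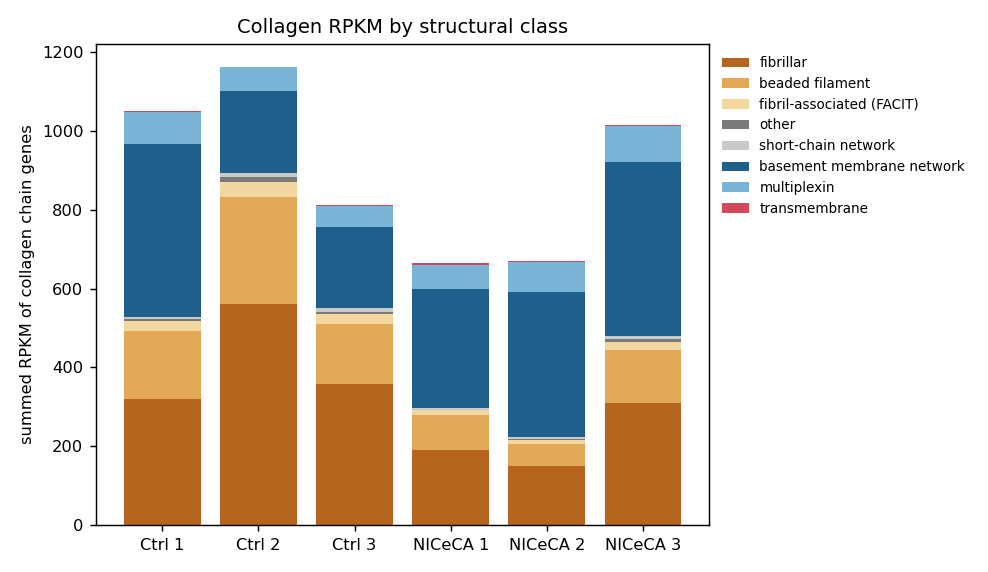
Summed RPKM of the 44 collagen chain genes (y axis) in each library (x axis), with the segments of a bar giving the structural classes. The basement membrane segment makes up 41.8%, 17.8% and 25.3% of the Ctrl bars and 45.7%, 55.0% and 43.3% of the NICeCA bars.

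Ratios between chains do not depend on the scaling of a library and compare the mRNA levels of chains within it. The chains of a pair may come from different cells, so each ratio is that of the captured cells as a whole. The Col5a1 to Col5a2 ratio was 10.9, 15.6 and 8.36 in Ctrl and 2.01, 1.96 and 2.40 in NICeCA libraries, a difference of -2.41 in the mean log2 ratio. This was the widest of the 6 ratios examined, and it ranged from -2.63 to -2.18 when each library was left out. The Col1a1 to Col1a2 ratio was 1.64, 1.83 and 1.46 in Ctrl and 1.000, 1.29 and 1.21 in NICeCA libraries, also without overlap. The Col1a1 to Col3a1 ratio was 0.0354, 0.0620 and 0.0482 in Ctrl and 0.0780, 0.158 and 0.114 in NICeCA libraries, higher in each NICeCA library. By contrast, Col4a1 to Col4a2 was 1.46 to 1.52 in Ctrl and 1.52 to 1.61 in NICeCA libraries. The Col6a1 to Col6a2 ratio was 1.55 to 1.62 and 1.70 to 1.91, without overlap, and Col6a3 to Col6a1 was 0.148 to 0.192 and 0.187 to 0.275, with overlap. For the 4 ratios without overlap the exact two-sided permutation p was 0.1, the smallest that 20 assignments of 3 against 3 libraries allow, and 0.15 after Benjamini-Hochberg adjustment over 6 ratios. The exact permutation p of the other two was 0.2 before and after adjustment.

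**Figure D4:**
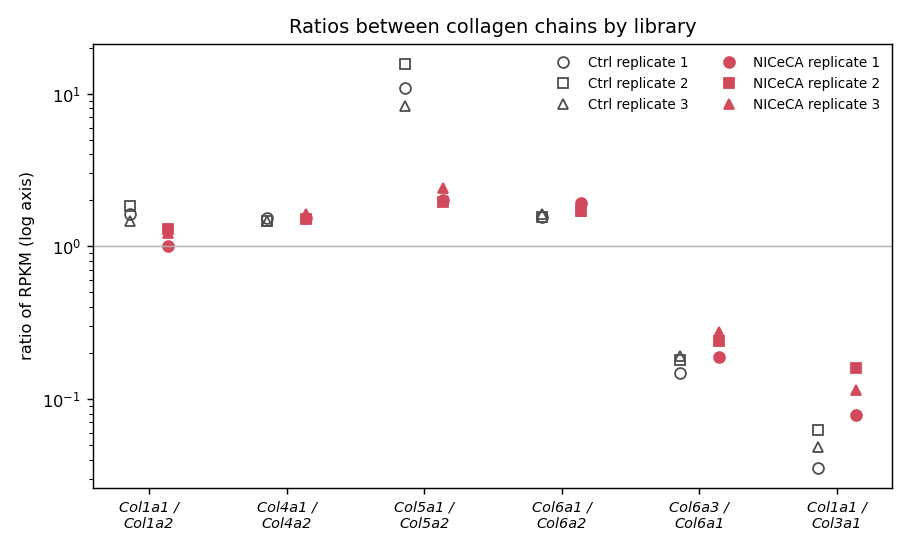
Ratio of the RPKM of a pair of collagen chains on a log axis (y axis) for 6 pairs (x axis), with open symbols for Ctrl and filled symbols for NICeCA libraries. The Col5a1 to Col5a2 ratio lies at 8.36 to 15.6 in Ctrl and 1.96 to 2.40 in NICeCA libraries, while Col4a1 to Col4a2 stays near 1.5 in both.

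The 25 members under a mean of 1 RPKM covered the remaining types. The lowest tested member was Col14a1 with a mean of 1.33 RPKM and the highest untested was Col10a1, the hypertrophic cartilage chain, with 0.558. Of the 25, 17 had a mean under 0.1 RPKM, among them the cartilage chain Col2a1 with at most 0.0998 RPKM and Col11a1 with at most 0.0311 RPKM in any library. Col11a2 ranged from 0.347 to 0.713 RPKM, the hemidesmosomal chain Col17a1 from 0.293 to 0.527 RPKM, Col23a1 from 0.108 to 0.498 RPKM and Col28a1 from 0.0667 to 0.672 RPKM. Col9a3, Col20a1 and Col27a1 stayed between 0.127 and 0.429 RPKM. The other members of the 17 were Col4a3, Col4a4, Col4a5, Col4a6, Col6a4, Col6a5, Col6a6, Col8a2, Col9a1, Col9a2, Col19a1, Col22a1, Col24a1, Col25a1 and Col26a1, all with at most 0.180 RPKM in any library. In 6 of the untested members at least 1 library held 0 reads, and Col26a1 held none in all 3 Ctrl libraries. Rows of Col7a1, Col17a1, Col27a1, Col10a1 and Col9a3 overlap another row of the table, so some of their reads may belong to the neighbour.

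Collagen chains are hydroxylated, glycosylated, folded and trimmed before they assemble, and 30 of 33 genes of this maturation path passed the filter. Of these 30, 2 rose and 2 fell, where 5.88% and 7.68% of all rows did so, with a median log2 fold change of -0.17. Those that rose encode subunits of prolyl 4-hydroxylase, the enzyme that hydroxylates proline in the Y position. Of its alpha subunits that were not called, P4ha1 had 0.72 (limma adjusted p = 0.0542) and P4ha3 -0.67 (limma adjusted p = 0.110). P4hb, the abundant beta subunit of the enzyme, measured 165, 201 and 211 RPKM in Ctrl and 323, 268 and 290.5 RPKM in NICeCA libraries (0.61, limma adjusted p = 0.0395). P4ha2, an alpha subunit, measured 2.13, 2.73 and 2.68 RPKM against 4.22, 3.84 and 5.83 RPKM (0.67, limma adjusted p = 0.0403). Those that fell encode proteases that trim procollagen ends, of which Adamts2 had 0.32 (limma adjusted p = 0.237) and Tll1 0.55 (limma adjusted p = 0.148). Adamts14, an N-proteinase, measured 9.89, 18.5 and 8.87 RPKM in Ctrl and 2.27, 2.26 and 5.11 RPKM in NICeCA libraries (-1.67, limma adjusted p = 0.0262), and Bmp1, the C-proteinase, 25.3, 39.5 and 21.6 RPKM against 10.6, 10.2 and 17.2 RPKM (-1.12, limma adjusted p = 0.0374). Sparc, a collagen-binding chaperone, at 138 to 235 RPKM in Ctrl and 229.5 to 335 RPKM in NICeCA libraries (0.78, limma adjusted p = 0.0632), and Ppib, a prolyl isomerase, at 165 to 184 and 217 to 262 RPKM (0.42, limma adjusted p = 0.0647), were the other two most abundant and did not pass. The counts moved from 2 and 2 to 5 and 2 with trimmed-mean scaling or limma voom, and to 1 and 1 with quantile normalization. They were 0 and 0 with no filter, without NICeCA replicate 1 or without NICeCA replicate 2. They were 2 and 1 without Ctrl replicate 1, 0 and 1 without Ctrl replicate 2 and 0 and 4 without NICeCA replicate 3. The all-row counts given above for each library left out apply here too.

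Collagen receptors were measured by 10 genes, of which 8 were tested, 1 rose and 1 fell, beside 5.88% and 7.68% of all rows, with a median of -0.43. Neither was called with quantile normalization, with no filter, or without Ctrl replicate 2, NICeCA replicate 1 or NICeCA replicate 2. The counts were 0 and 1 without Ctrl replicate 1 and 0 and 2 without NICeCA replicate 3, again to be read against the all-row counts of those fits. Itga1, the alpha chain of an integrin that binds type IV and type I collagen, measured 7.88, 4.12 and 8.30 RPKM in Ctrl and 11.5, 13.7 and 14.5 RPKM in NICeCA libraries (0.92, limma adjusted p = 0.0423). Itga10, the alpha chain of a receptor known from cartilage, measured 4.79, 5.83 and 1.93 RPKM in Ctrl and 0.978, 0.983 and 1.36 RPKM in NICeCA libraries (-1.22, limma adjusted p = 0.0402). Itgb1, the beta chain shared by all collagen-binding integrins, was the most abundant at 80.1 to 114 RPKM in Ctrl and 109.8 to 122 RPKM in NICeCA libraries (0.29, limma adjusted p = 0.216). Lair1, a leukocyte receptor for collagen, stood at 16.7 to 26.1 and 12.5 to 21.1 RPKM (-0.34, limma adjusted p = 0.336).

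Genes of other cell types that make collagen moved between the groups too, and the counts are again to be read against the 5.88% of all rows called higher and the 7.68% called lower. Among 12 fibroblast markers, 10 were tested, 2 rose and 4 fell, and the summed level was 174 to 247 RPKM in Ctrl and 203 to 269 RPKM in NICeCA libraries. Those that fell were Dpt (-1.11, limma adjusted p = 0.0252), Islr (-1.12, 0.0329), Lum (-1.01, 0.0427) and Pdgfra (-0.89, 0.0433), and those that rose were Pdpn (1.78, limma adjusted p = 0.0109), which lymphatic endothelium and some macrophages also express, and Postn (1.14, 0.0273). Among the 12 markers of pericytes and smooth muscle, 10 were tested, and Rgs5 (1.40, limma adjusted p = 0.0381), Tagln (1.45, 0.0259) and Kcnj8 (1.08, 0.0427) rose and none fell, with a sum of 40.2 to 59.1 RPKM in Ctrl and 83.0 to 155 RPKM in NICeCA libraries. None of these fibroblast or mural markers was at 0 in any library. Their part in the collagen levels was not tested.

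Markers of cells that are no usual source of fibrillar collagen moved as well, beside 5.88% of all rows called higher and 7.68% called lower. Of 15 endothelial markers all had a positive fold change and 2, Vwf (1.15, limma adjusted p = 0.0356) and Flt1 (1.03, 0.0442), rose. Of 8 tested neutrophil markers 7 rose, and the list summed to 126 to 283 RPKM in Ctrl and 631 to 1691 RPKM in NICeCA libraries, highest in NICeCA replicate 3. Among those that rose, Ngp measured 0.154 to 0.729 RPKM in Ctrl and 1.73 to 2.66 RPKM in NICeCA libraries. It passed the filter on low values only through the NICeCA libraries, so its place among the tested markers is not independent of its change. Of 10 macrophage markers 6 had a negative fold change, the median was -0.19, and 2 rose, Cd68 (0.75, limma adjusted p = 0.0223) and Itgam (0.77, 0.0476). The most abundant of them were not called, Lyz2 with -0.17, C1qa with -0.54 and C1qc with -0.53. Of the epithelial list 2 of 7 were tested, and Krt18 fell (-0.98, limma adjusted p = 0.0381). The other tested gene, Cdh1, was the most abundant of the list and was not called (0.51, limma adjusted p = 0.426). Cldn4 and Krt19 were each at 0 in at least 1 library. Their part in the collagen levels was likewise not tested.

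**Figure D5:**
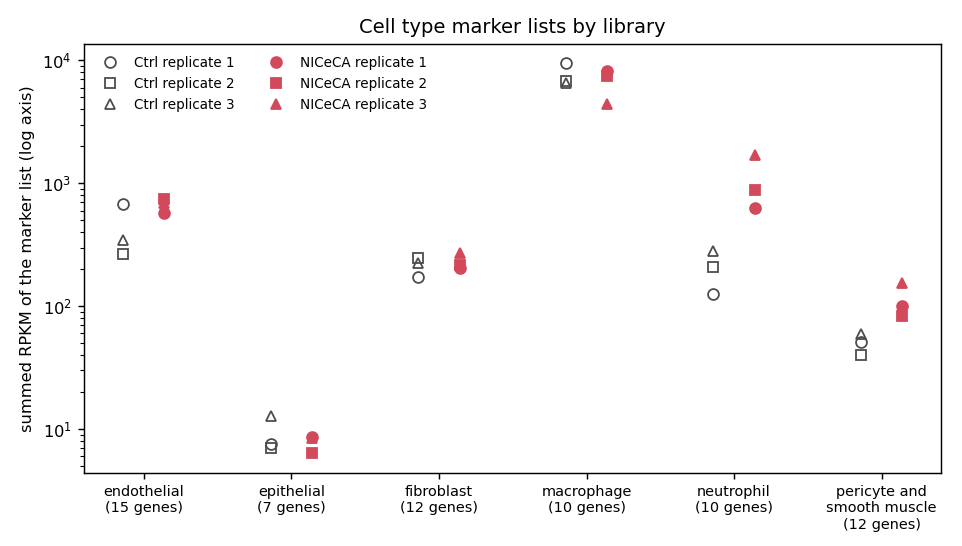
Summed RPKM of 6 cell type marker lists on a log axis (y axis) by list (x axis), with open symbols for Ctrl and filled symbols for NICeCA libraries. The neutrophil sum is 126 to 283 RPKM in Ctrl and 631 to 1691 RPKM in NICeCA libraries, and the fibroblast sums of the groups overlap.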

How the data were processed

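Bulk RNA-seq of 3 NICeCA and 3 Ctrl libraries was analysed. The authors deposited RPKM values for 56826 rows, 23473 of them RefSeq genes, with no pooling of replicates. The submitters' processing notes name TopHat2 and mm9, but the positions of all 44 collagen rows overlap their place in GRCm38, and the sources used here give neither the counter nor its strand setting. Rows of FANTOM3 transcript models were left out. Whole reads were recovered from the RPKM values and row lengths, which gave 100% whole values within 0.05 of a read. The recovered reads summed to 35303191 to 39823498 per library over RefSeq and FANTOM3 rows together. These rows cover the same reads in part, so this sum is not the depth of a library.

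From the deposited RPKM values, log2(RPKM + 1) of the RefSeq rows with a mean of at least 1 RPKM was compared between groups (limma 3.58.1 under R 4.3.3, linear model and moderated test with a mean-variance trend), two-sided, with Benjamini-Hochberg adjustment over 12320 rows and a threshold of 0.05. A fold change on this scale understates the change of low genes. Chain ratios were compared with an exact permutation test (Python 3.11.15, SciPy 1.17.1). The procedure was tested on simulated data. Groups and replicate numbers came from the sample titles. Same-numbered libraries showed no consistent shared deviation, which cannot tell whether they were paired, and no 2 libraries of a group were copies of each other. The structural classes and the lists for maturation, receptors and cell type markers were written from general knowledge. The members and lists were chosen with earlier results of these data known. All tested collagen chains may be named, and of other lists the called genes and the 3 most abundant. Hey1, Nrarp and Notch1 were added after their values were seen. P4ha1, P4ha3, Adamts2, Tll1, Cldn4 and Krt19 are also named outside this rule, with their values known. Exons came from GENCODE M21, from the transcript as long as the row for 8 of 44 genes and otherwise from the longest coding sequence, and promoters from a RefSeq table. Protein sequences were not used here. Alternatives were other scalings, filters, pseudocounts and variance models, voom on recovered reads, a length-trend correction, the replicate block and leaving out each library.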

Additional observations from a re-analysis of the deposited data

How the results depend on the processing

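The number of collagen chains called higher and lower, 2 and 4, became 1 and 0 with the replicate block, 2 and 1 with trimmed-mean scaling, 2 and 1 with quantile normalization, 0 and 0 with no filter, 0 and 4 with a mean of at least 5 RPKM (15 tested, Col13a1 and Col5a2 not among them), 2 and 2 with limma voom on recovered reads, and 2 and 0 with the length trend removed. A pseudocount of 0.1, or no mean-variance trend, kept 2 and 4. Leaving out each library gave 0 to 3 higher and 0 to 7 lower. Over all 12320 rows, 725 higher and 946 lower became 1098 and 612 with trimmed-mean scaling, 446 and 325 with quantile normalization, and 590 and 206 with the length trend removed. The all-row counts were 327 and 209 with the replicate block, and 42 and 9 of 23473 rows with no filter. Leaving out each library gave 26 to 913 higher and 1 to 832 lower over all rows, with 26 and 1 without NICeCA replicate 2. The median of all rows was -0.05, 0.04 with trimmed-mean scaling and 0.00 with the length trend removed. The median of the tested collagen chains, -0.29, ranged from -0.44 to -0.25 when each library was left out, and was -0.65 with a mean of at least 5 RPKM, -0.46 with a pseudocount of 0.1, -0.43 with voom, -0.23 with trimmed-mean scaling, -0.13 with quantile normalization, -0.06 with the length trend removed and 0.01 over all 44 with no filter. The cause of these shifts was not tested.

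In the maturation list, 2 higher and 2 lower became 0 and 1 with the replicate block, 5 and 2 with trimmed-mean scaling, 1 and 1 with quantile normalization, 0 and 0 with no filter, 1 and 2 with at least 5 RPKM, 5 and 2 with voom, and 3 and 1 with the length trend removed, and ran from 0 to 2 higher and 0 to 4 lower when each library was left out. In the receptor list, 1 and 1 became 0 and 0 with the replicate block, with quantile normalization and with no filter, and 1 and 0 with at least 5 RPKM, with voom and with the length trend removed, and ran from 0 to 1 higher and 0 to 2 lower over the libraries left out. The median of the receptor list, -0.43, was -0.027 over the 4 genes with at least 5 RPKM. The counts of both lists are to be read against the all-row counts of the same fits.

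The sign of Col15a1, -0.04, turned to 0.36 without Ctrl replicate 1, 0.09 without NICeCA replicate 1, 0.053 with trimmed-mean scaling, 0.0273 with voom and 0.14 with the length trend removed. That of Col1a1, 0.10, turned to -0.24 without Ctrl replicate 1 and -0.18 without NICeCA replicate 3. Over the libraries left out, Col15a1 ran from -0.25 to 0.36 and Col1a1 from -0.24 to 0.4966. None of these was called, and the other tested chains kept their direction in all alternatives run. Same-numbered libraries of the 2 groups had correlations of 0.12, -0.34 and -0.18 in their deviations. No Ctrl library correlated best with its own number, and of the NICeCA libraries only replicate 1 did. With so few libraries a group, these values cannot tell whether the replicate numbers stand for pairs. The chain ratios kept their direction with each library left out and with 1 added to both values. The summed collagen RPKM and the basement membrane, beaded filament and fibrillar shares kept theirs with only the tested rows and with trimmed-mean scaling, and no library was left out for these. With 3 libraries a group, the exact tests could not pass 0.05.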
